A study of Mus musculus with 6 samples.

Results

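The 10 genes described here serve amino acid transport and the transcriptional response led by ATF4. They were taken by name, as Slc1a3, Slc1a4, Slc1a5, Slc7a5, Slc7a11, Slc3a2, Asns, Atf4, Chac1 and Trib3. Each name was found in 1 row of every count file, so these are 10 of the 34745 genes listed. RNA came from 889 cells, a murine lung cancer line (889-DTC) whose labels give the strain C57BL/6 and the tissue lung, grown in serum-containing medium. The sg-con group holds 3 libraries of cells that carry Cas9 and a control sgRNA, and the sg-kiaa1522 group holds 3 libraries of cells that carry Cas9 and sgRNA against kiaa1522, with the treatment label KIAA1522-downregulated. Both groups express Cas9 from a lentivirus. By the study's methods the control guide came in a different plasmid from the kiaa1522 guides, so the groups differ in plasmid and guide. The part of the plasmid in the results below was not tested. The sources used here do not say which guide the sequenced cells carried, whether they were a pool or a clone, or whether the 3 libraries of a group came from separate infections, so the p-values measure the spread between these libraries, which may be technical.

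Cells take up amino acids through membrane carriers and make some of them anew. When amino acids run short or the endoplasmic reticulum is stressed, kinases phosphorylate the initiation factor eIF2, general translation falls, and translation of the Atf4 mRNA rises. The ATF4 protein, a bZIP transcription factor, then pairs with C/EBP proteins and switches on genes for amino acid uptake, amino acid synthesis and tRNA charging, which is known as the integrated stress response. ATF4 is regulated mainly at translation, which RNA counts do not measure. In tumours, including those of the lung, this program is known for sustaining glutamine, cystine and asparagine supply.

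ATF4 with a C/EBP partner binds a composite element, the C/EBP-ATF response element, whose core is spelled here as TGATGNAA, or TTNCATCA on the other strand. RefSeq promoter sequences on GRCm38.p6, from 250 bases before to 50 bases after a start, were given for 8 of the 10 genes, and Slc1a5 and Slc7a5 had no entry. The core was present on either strand in the promoters of 5 of these 8 genes (62.5%), against 1219 of 27025 genes with an entry (4.51%). Counted by promoter, 1304 of 32851 of the same length held it (3.97%). The group was put together with known ATF4 targets, so its share is a description and not a test. Slc7a11 held 2 matches, and 23 of the 32851 promoters (0.07%) held at least 2. A match is a description of the letters and not of binding, which was not measured. The windows that hold the 6 matches, in 5 of the genes, are shown in the direction of transcription, with the core in capitals:

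Slc7a11, chr3:50443661-50443690: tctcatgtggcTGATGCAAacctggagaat
Slc7a11, chr3:50443642-50443671: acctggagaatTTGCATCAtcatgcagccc
Slc1a4, chr11:20332699-20332728: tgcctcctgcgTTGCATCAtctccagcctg
Chac1, chr2:119351038-119351067: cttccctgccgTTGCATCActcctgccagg
Asns, chr6:7693214-7693243: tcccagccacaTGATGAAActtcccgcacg
Trib3, chr2:152344028-152344057: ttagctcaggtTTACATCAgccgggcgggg

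Slc7a11, Slc1a4, Asns and Trib3 lie on the minus strand and Chac1 on the plus strand. Counted from the RefSeq start, the matches of Slc7a11 ran from -66 to -59 and from -47 to -40, that of Chac1 from -193 to -186, and that of Asns from -23 to -16. The match of Slc1a4 spanned the start, from -4 to 4. That of Trib3 lay after the RefSeq start, at 15 to 22, but before the start of the gene in GENCODE M21, at 152344032. For Asns the reverse held, since GENCODE starts the gene at 7693254, before the match. The 250 bases before the starts of the 2 genes whose transporters exchange or take up glutamate are given in full, since Slc7a11 held both matches close together and Slc1a3 held none. The first reads chr3:50443614-50443863 and the second chr15:8710808-8711057, both on the minus strand:

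Slc7a11: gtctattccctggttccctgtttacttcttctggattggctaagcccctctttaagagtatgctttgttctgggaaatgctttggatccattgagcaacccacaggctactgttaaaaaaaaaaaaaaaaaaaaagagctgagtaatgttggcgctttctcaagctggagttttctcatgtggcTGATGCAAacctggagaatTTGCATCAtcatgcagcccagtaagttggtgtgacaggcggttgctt
Slc1a3: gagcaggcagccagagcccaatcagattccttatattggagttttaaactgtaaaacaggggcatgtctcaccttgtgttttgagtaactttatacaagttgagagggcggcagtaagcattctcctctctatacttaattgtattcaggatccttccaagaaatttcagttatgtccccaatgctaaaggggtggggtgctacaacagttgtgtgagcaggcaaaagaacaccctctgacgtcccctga

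The promoters of Atf4 and Slc3a2 held no match either. The RefSeq window of Slc3a2 (chr19:8713848-8714147) lies inside the gene as GENCODE gives it, whose start is at 8723369, so the region before that start was not searched. No match says only that these letters are not in this window. The same core was found in 7 of the 27 promoter-matched genes of a list of other ATF4 and stress response targets (25.9%), in 5 of 13 aminoacyl-tRNA synthetase genes (38.5%) and in 1 of 24 other amino acid transporter genes (4.17%), against 1219 of all 27025 genes with an entry (4.51%).

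Counts summed to between 12220001 and 18609376 per library, and a gene was tested if its counts over the 6 libraries exceeded 500, which 10046 genes did, all 10 among them. The targeted gene, listed as C77080, had 2214, 2404 and 2064 counts in the sg-con libraries and 2554, 3726 and 3667 in those labelled sg-kiaa1522. Its mRNA was higher in the latter (log2 fold change 0.73, SE 0.0569, adjusted p = 9.1e-05). The mRNA thus did not follow the label downregulated, the group is called by its label throughout, and each direction given below refers to libraries with more kiaa1522 mRNA. Protein was not measured in these data. Cas9 edits the gene and need not lower its mRNA, so the mRNA level does not tell whether the protein was higher or lower. SE is an approximate standard error, the size of a log2 fold change divided by the square root of its test's F statistic. The keratins of the epithelial marker list were abundant, with 3810 to 4575 CPM (counts scaled to a library's normalised size) summed over the list in sg-con and 3218 to 3498 in sg-kiaa1522, while Epcam, Cldn4 and Cldn7 had at most 3 counts in any library. All 4 tested epithelial markers were lower at an adjusted p of at most 0.05, as were 26.3% of all tested genes. Krt18, the most abundant of them, was so only narrowly (2124 and 1859 CPM on average, log2 fold change -0.19, adjusted p = 0.05), and its groups overlapped. The 5 endothelial markers summed to at most 1.78 CPM and the 5 mast cell markers to at most 0.115. The 6 leukocyte markers rose from 2.27 to 5.91 CPM in sum to 11 to 14, which came from Cd68 (1.2 to 11.3 CPM), while Lyz2 had 2.27 CPM on average in sg-con and 0.925 in sg-kiaa1522, and Adgre1 and Itgam had at most 3 counts. The 6 lung alveolar markers summed to 126 to 172 CPM in sg-con and 109 to 163 in sg-kiaa1522, with Foxa2 the largest share (81.9 and 103 CPM on average, adjusted p = 0.069). Of the 3 tested, Sftpb was lower (21.6 and 13.6 CPM, adjusted p = 0.012), and Nkx2-1 had 42.8 and 20 CPM with overlap (adjusted p = 0.21), while Sftpc, Sftpa1 and Napsa had at most 3.36 CPM on average in either group. The 6 fibroblast markers fell from 425 to 442 CPM in sum to 145 to 164, nearly all of it Col1a2, with Dcn and Lum at most at 3 counts. The part of these differences in the results below was not tested, and in bulk RNA fewer cells of a kind and less RNA per cell cannot be told apart.

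Of the 10 genes, 9 were higher in the libraries labelled sg-kiaa1522 at an adjusted p of at most 0.05 (quasi-likelihood test of edgeR, Benjamini-Hochberg adjusted over all tested genes), and none was lower. Among all tested genes 26.3% were higher and 26.3% lower by the same rule, so this comparison moved many genes. Slc1a3 passed the filter of 500 counts only through the group in which it was high, as 320 tested genes did through 1 group or the other (both groups at the sum of the lower one would not exceed 500). Without these genes, a setting added after the data were seen, 8 of 9 genes were higher, against 26.2% higher and 25.3% lower among the rest. When a log2 fold change of 1 or more in size was also required, 4 of the 10 were higher (Slc1a3, Slc7a11, Chac1 and Trib3), against 2.74% of tested genes higher and 4.34% lower. Without the 320 genes these were 3 of 9, against 2.02% and 3.31%. The median log2 fold change of the 10 genes was 0.58, and 0.56 without Slc1a3, against -0.01 over all tested genes. In 9 genes every library labelled sg-kiaa1522 lay above every sg-con library, which held for 30.6% of tested genes. In all, 8 of the 10 genes were above the 75th percentile of all log2 fold changes (0.31) and 4 above the 95th (0.82).

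**Figure D1:**
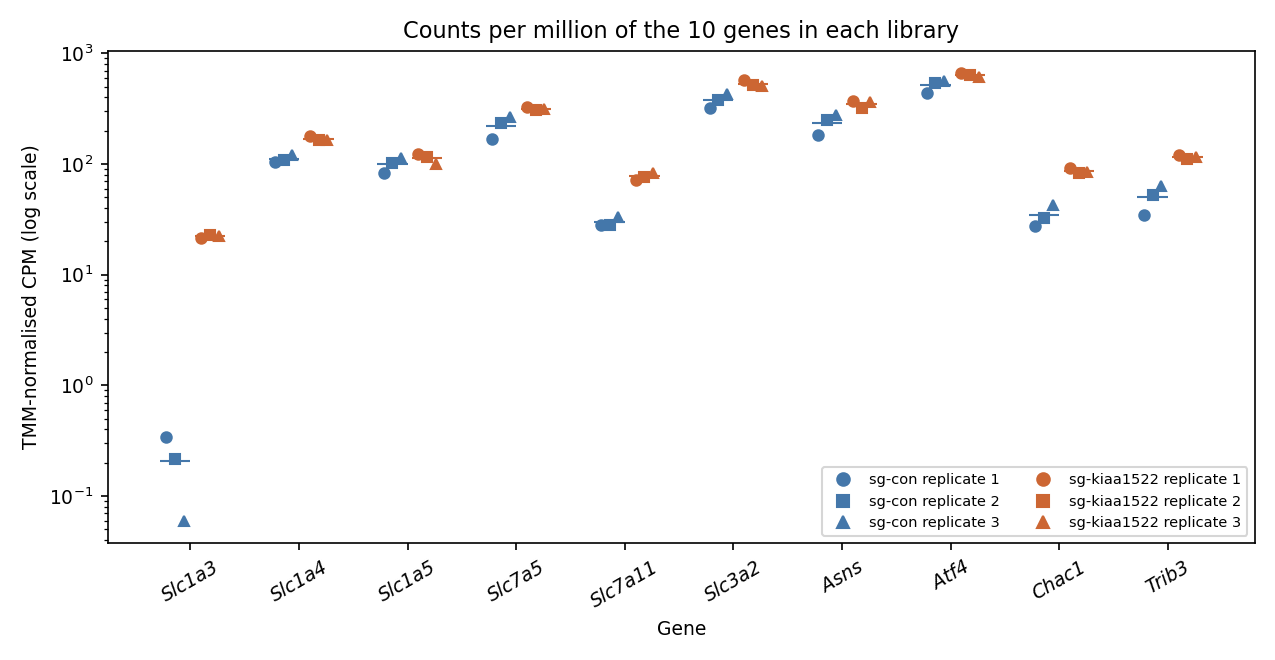
TMM-normalised CPM (log scale) of each of the 10 genes in the 3 sg-con libraries (blue) and the 3 libraries labelled sg-kiaa1522 (orange), with the marker shape giving the replicate and a line the group mean. The groups are apart in every gene except Slc1a5, and Slc1a3 goes from at most 0.344 CPM to at least 21.6 CPM.

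The carriers of the SLC1 family come first. Slc1a3, Slc1a4 and Slc1a5 lie on GRCm38 at chr15:8634124-8710764 and chr11:20302180-20332713, both on the minus strand, and chr7:16781340-16798274 on the plus strand (GENCODE M21). In none of the 10 genes did an exon share bases with an exon of another gene. Slc1a3 encodes EAAT1, a sodium-coupled transporter of glutamate and aspartate best known from glia. It had 6, 4 and 1 counts in the sg-con libraries and 262, 419 and 384 in those labelled sg-kiaa1522. The sg-con libraries thus lay near the floor of 3 counts, which is 0.162 to 0.247 CPM in the 6 libraries, and the others lay close together at 21.6, 22.9 and 22.6 CPM. The ratio of the summed counts, scaled to library size, was 107 (95% interval 59.8 to 216, an exact binomial interval that covers counting error only). The fitted log2 change came to 6.69 (SE 0.269, adjusted p = 8.8e-06), which ranked 2 by log2 fold change among the 10046 tested genes. The 95% interval from this SE, 6.06 to 7.32, is narrower than the counting interval put on the log2 scale, so the SE is too small for this gene. With 11 counts in sg-con and 1065 in sg-kiaa1522, a gene that passed the filter in this way had to differ, so the test and rank of Slc1a3 are given as a description. The other genes of high-affinity glutamate uptake in the transporter list were at or under the floor, with 0 counts of Slc1a1 and Slc1a6 in every library and at most 2 counts of Slc1a2. A list of 5 glial markers (Gfap, Aqp4, S100b, Gja1 and Slc1a2) summed to between 0.6 and 1.47 CPM over all libraries, with Aqp4, S100b and Slc1a2 at most at 3 counts.

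Slc1a4 encodes ASCT1, an exchanger of alanine, serine, cysteine and threonine. It had 104, 109 and 121 CPM in the sg-con libraries and 179, 164 and 164 CPM in those labelled sg-kiaa1522, without overlap. The log2 change came to 0.60 (SE 0.0765, adjusted p = 6.0e-04). Slc1a5 encodes ASCT2, an exchanger of glutamine and other neutral amino acids. It had 83.5, 102 and 113 CPM in sg-con and 122, 116 and 101 CPM in sg-kiaa1522, and the groups overlapped. Its log2 fold change of 0.18 (95% interval -0.10 to 0.47, adjusted p = 0.24) was not larger than the spread between libraries, and the interval leaves room for a rise of the size seen in Atf4. The differences between these genes' fold changes were not tested, and the intervals of Slc1a4 (0.43 to 0.78) and Slc1a5 overlapped.

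The heteromeric carriers pair a light chain, which carries the amino acid, with the glycoprotein heavy chain 4F2hc (CD98), which brings it to the membrane. Slc3a2, Slc7a5 and Slc7a11 lie on the minus strand at chr19:8706882-8723369, chr8:121881150-121907694 and chr3:49892526-50443614. Slc3a2, the heavy chain, had 319, 382 and 432 CPM in sg-con and 569, 520 and 510 CPM in the libraries labelled sg-kiaa1522. It rose by 0.50 on the log2 scale (SE 0.111, adjusted p = 0.0074), and the groups did not overlap. Slc7a5, the light chain LAT1 that imports leucine and other large neutral amino acids, had 170, 234 and 265 CPM in sg-con and 325, 311 and 317 CPM in sg-kiaa1522. The sg-con libraries were spread widely here and the others were close together. The log2 change came to 0.51 (SE 0.146, adjusted p = 0.021), and the call ended without sg-kiaa1522 replicate 1 (0.49, adjusted p = 0.057) or without replicate 3 of that group (0.51, adjusted p = 0.053). Slc7a11, the light chain xCT that exchanges intracellular glutamate for extracellular cystine, had 28, 28.1 and 33.3 CPM in sg-con and 72.3, 76.9 and 83.6 CPM in sg-kiaa1522. Its log2 fold change of 1.38 (SE 0.102 and adjusted p = 7.4e-05) was 2.61-fold and ranked 133 by log2 fold change among all tested genes.

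The balance of light and heavy chain mRNA was compared per exon length, as the log2 ratio of TPM (counts divided by exon length and scaled to the same sum) in each library. Slc7a5 over Slc3a2 was -0.98, -0.78 and -0.78 in sg-con and -0.88, -0.81 and -0.76 in sg-kiaa1522. The groups overlapped, with a difference of 0.03 (exact two-sided permutation test, p = 0.8, adjusted p = 0.8 over the 2 ratios), and the sign turned without sg-con replicate 1 (-0.04). Slc7a11 over Slc3a2 was -5.49, -5.75 and -5.68 in sg-con and -4.96, -4.74 and -4.59 in sg-kiaa1522, without overlap. The difference was 0.88 (p = 0.1 by the same exact permutation test, adjusted p = 0.2 over the 2 ratios). With 3 against 3 libraries 0.1 is the smallest p that this permutation test can give, so it could not pass 0.05 for either ratio, and no other test of the ratios was run. In every library the mRNA of xCT was far below that of the heavy chain.

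**Figure D2:**
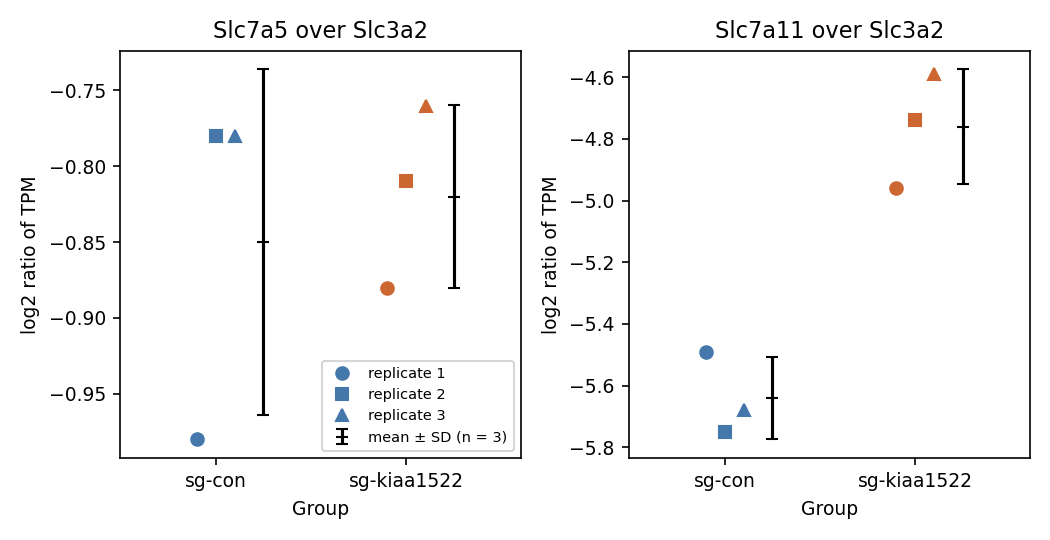
Log2 ratio of light chain to heavy chain TPM in each library, Slc7a5 over Slc3a2 on the left and Slc7a11 over Slc3a2 on the right, with markers for replicates and bars for the mean ± SD of 3 libraries. The left ratio overlaps between groups, and the right one goes from a mean of -5.64 to -4.76 without overlap.

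Atf4 (chr15:80255184-80257541, plus strand) had 442, 540 and 561 CPM in sg-con and 663, 636 and 613 CPM in the libraries labelled sg-kiaa1522. The groups did not overlap, and the log2 fold change of 0.31 (SE 0.0937 and adjusted p = 0.026) was among the smallest of the 10, with only that of Slc1a5 smaller. The call ended without sg-kiaa1522 replicate 1 (0.28, adjusted p = 0.081) or without replicate 2 of that group (0.31, adjusted p = 0.068), and the value was 0.20 without sg-con replicate 1 (adjusted p = 0.014).

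Asns, Chac1 and Trib3 are known targets of ATF4. They lie at chr6:7675169-7693254 (minus strand), chr2:119351229-119354381 (plus strand) and chr2:152337422-152344032 (minus strand). Asns makes asparagine from aspartate and glutamine. It had 183, 248 and 280 CPM in sg-con and 373, 318 and 361 CPM in sg-kiaa1522, a log2 fold change of 0.56 (SE 0.149 and adjusted p = 0.015). Chac1, a glutathione-degrading enzyme, had 27.8, 32.4 and 42.6 CPM in sg-con and 92.8, 83.5 and 84.6 CPM in sg-kiaa1522. Its log2 change came to 1.34 (SE 0.152, adjusted p = 3.7e-04), or 2.54-fold. Trib3, a pseudokinase that feeds back on ATF4 and binds AKT, had 34.8, 52.3 and 62.8 CPM in sg-con and 121, 111 and 117 CPM in sg-kiaa1522. Its log2 change came to 1.22 (SE 0.19, adjusted p = 0.0015), or 2.33-fold. In all 3 the groups were apart. Slc7a11, Chac1 and Trib3 stayed above a log2 fold change of 1 with any one library left out, with lowest values of 1.32, 1.21 and 1.01.

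**Figure D3:**
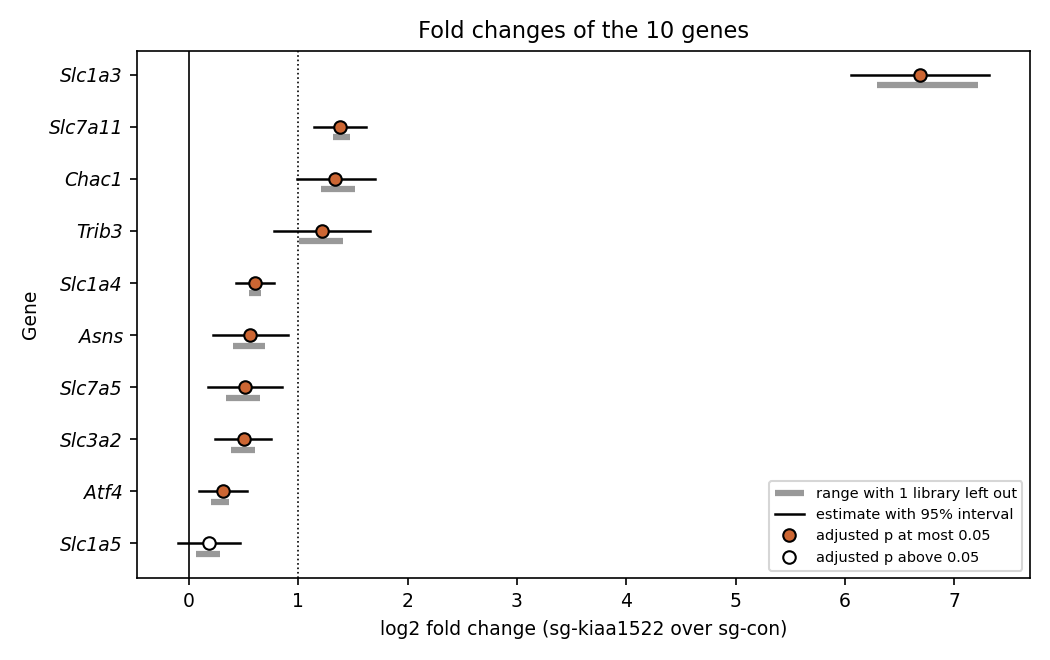
Log2 fold change (sg-kiaa1522 over sg-con) of each of the 10 genes with its approximate 95% interval (black line), and the range of the estimate with each library left out in turn (grey bar). The interval of Slc1a3 is too narrow, as its counting error alone is wider. The dotted line marks a log2 fold change of 1, which Slc1a3, Slc7a11, Chac1 and Trib3 exceed, and the open symbol is Slc1a5.

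The sg-con libraries differed among themselves in these genes. In 9 of the 10, sg-con replicate 1 was the lowest library of its group, which held for 42.2% of all tested genes, and the exception was Slc1a3, where it was the highest. The mean deviation of the other 9 genes from their own mean over the 6 libraries was -0.64, -0.34 and -0.15 log2 CPM in the sg-con libraries and 0.43, 0.34 and 0.35 in those labelled sg-kiaa1522. The spread of Trib3 was 28.3% of its mean in sg-con and 4% in sg-kiaa1522, and that of Slc7a5 was 21.6% and 2.27%. Over all tested genes, too, sg-con replicate 1 differed most from the other libraries of its group, with a chi-square per degree of freedom of 23.4 and 30.7 against 12.6 between the other 2. Without it, the same 9 genes were higher, with adjusted p-values from 4.3e-05 to 0.014, and smaller fold changes in each of them but Slc1a3 (7.22), such as 0.34 for Slc7a5, 0.40 for Asns and 1.01 for Trib3. The groups remained apart in each of these 9 over the other 5 libraries. Among all tested genes, 29.6% were higher in that fit, and 37% had every library labelled sg-kiaa1522 above both other sg-con libraries.

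**Figure D4:**
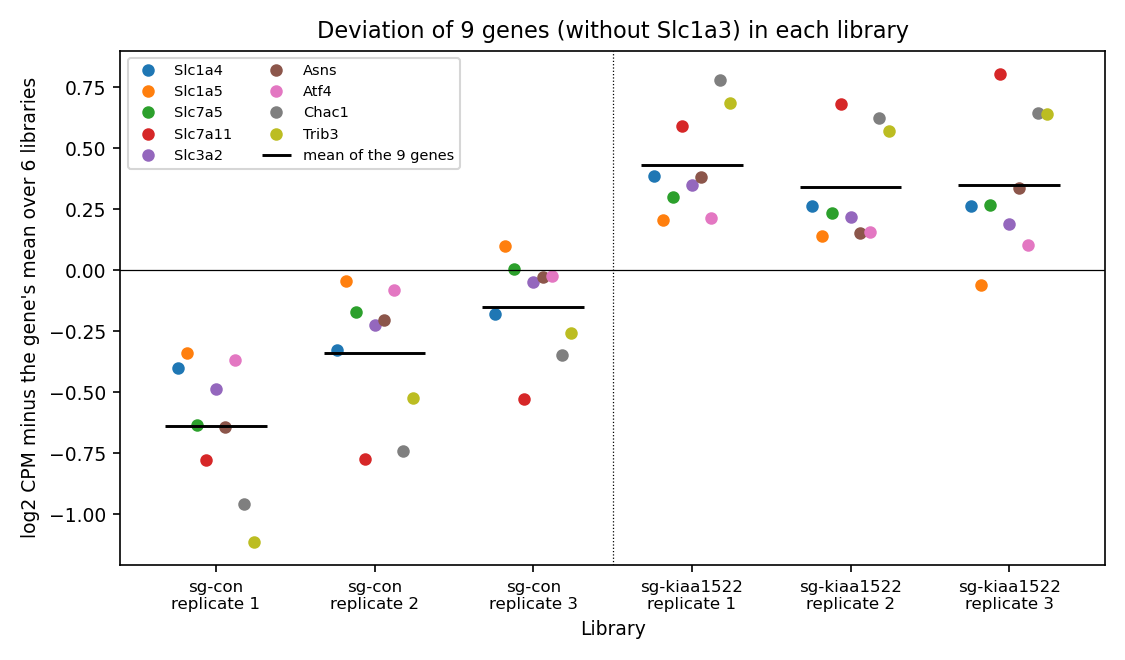
Log2 CPM of 9 genes (all but Slc1a3) minus each gene's mean over the 6 libraries, by library, with the black line giving the mean of the 9 genes. The sg-con libraries are spread from -0.64 to -0.15 in this mean, and the libraries labelled sg-kiaa1522 lie between 0.34 and 0.43.

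Levels of different genes were compared per exon length. In sg-con the order by mean TPM (SD, n = 3) was Atf4 at 559 ± 57.7, Slc3a2 at 274 ± 36.4, Asns at 222 ± 42.2, Slc7a5 at 154 ± 30.5, Slc1a4 at 72.7 ± 4.67, Slc1a5 at 61.1 ± 8.03, Trib3 at 60.1 ± 16, Chac1 at 53.6 ± 11, Slc7a11 at 5.49 ± 0.51 and Slc1a3 at 0.0626 ± 0.0442. The libraries of Slc3a2 and Asns overlapped, as did those of Asns and Slc7a5 and those of Slc1a5, Trib3 and Chac1. Those of Trib3 also overlapped with those of Slc1a4. In the libraries labelled sg-kiaa1522 the order was Atf4 at 739 ± 23.3, Slc3a2 at 413 ± 22.9, Asns at 351 ± 32.1, Slc7a5 at 234 ± 7.04, Trib3 at 150 ± 7.24, Chac1 at 145 ± 8.45, Slc1a4 at 118 ± 5.7, Slc1a5 at 74.1 ± 6.05, Slc7a11 at 15.3 ± 1.32 and Slc1a3 at 7.16 ± 0.247. Only Trib3 and Chac1 overlapped as neighbours there. Chac1 lay below Slc1a4 by mean in sg-con and above it in sg-kiaa1522, and this also held when the mean transcript length replaced the merged exon length (28 and 38.2 TPM in sg-con, 73.2 and 59.8 in sg-kiaa1522). Other places in the order depended on the length used: with mean transcript length Slc3a2 came before Atf4 (497 and 469 TPM in sg-con), Slc1a5 before Slc1a4 (116 and 38.2), and Trib3 before Slc1a4 in sg-con already (63.1). Slc1a3, the gene with the steepest rise, stayed the least abundant of the 10 with either length.

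The rest of the pathway was read from lists written by hand from general knowledge. They were chosen with earlier results of these data known, so the counts of every list below are a description and not independent support. A list of 30 further ATF4 and integrated stress response targets had 25 tested genes, of which 16 were higher, 1 was lower and 8 did not pass, against 26.3% of all tested genes higher and 26.3% lower. The median log2 fold change was 0.45, against -0.01 over all tested genes. Without sg-con replicate 1 these counts were 15 higher and 2 lower, and without Cth, which passed the filter only through the group in which it was high, 15 of 24 were higher. Those with a log2 fold change of 1 or more as well were Gadd45a, a growth arrest and DNA damage gene (40.7 ± 5.27 to 114 ± 7.26 CPM, SD, n = 3, log2 fold change 1.48, adjusted p = 6.6e-05), Gpt2, the mitochondrial alanine aminotransferase (63.1 ± 3.24 to 161 ± 5.39, 1.35, adjusted p = 1.9e-05), Stc2, a secreted stanniocalcin (38.3 ± 0.381 to 95.1 ± 5.87, 1.31, adjusted p = 2.8e-05), and Herpud1, of endoplasmic reticulum degradation (64.8 ± 3.74 to 146 ± 10.4, 1.18, adjusted p = 5.3e-05). The 1 that fell was Ddit4, an inhibitor of mTORC1 (34.9 ± 1.65 to 27 ± 0.826 CPM, log2 fold change -0.37, adjusted p = 0.0061). Ddit4, Ddit3, Sesn2 and Atf3 fall outside the rule for named genes and were chosen after their values were seen. Ddit3, which encodes the C/EBP family member CHOP, rose by 0.89 on the log2 scale (adjusted p = 7.6e-04), and Sesn2, a leucine sensor, by 0.93 (adjusted p = 2.1e-04). Atf3 had 142 ± 40 and 110 ± 28 CPM (SD, n = 3, log2 fold change -0.37, adjusted p = 0.22).

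Of 19 tested aminoacyl-tRNA synthetases, the enzymes that charge tRNAs in the cytosol, 12 were higher, 1 was lower and 6 did not pass (all tested genes: 26.3% higher, 26.3% lower), with a median log2 fold change of 0.37. Aars, for alanine, rose from 275 ± 42.7 to 583 ± 4.23 CPM (SD, n = 3, log2 fold change 1.08, adjusted p = 2.1e-04). Tars, for threonine, rose by 0.99 (adjusted p = 8.2e-05) and Iars, for isoleucine, by 0.83 (adjusted p = 1.0e-04) on the same scale. The 1 that fell was Hars, for histidine, named after its value was seen (log2 fold change -0.45, adjusted p = 0.0021).

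Among 31 other amino acid transporters 14 were tested. Of these, 8 were higher, 2 were lower and 4 did not pass, beside 26.3% higher and 26.3% lower among all tested genes, and the median was 0.45. Slc7a2, a cationic amino acid transporter whose sg-con libraries were spread widely (876, 558 and 345 counts), rose from 33.7 ± 15.1 to 81.4 ± 5.02 CPM (SD, n = 3, log2 fold change 1.27, adjusted p = 0.007), and Slc6a9, the glycine transporter GLYT1, from 29.4 ± 5.08 to 63.3 ± 0.703 CPM (1.11, adjusted p = 3.7e-04). The 2 that fell, named after their values were seen, were the taurine transporter Slc6a6 (-0.41, adjusted p = 0.0025) and Slc38a10 (-0.36, adjusted p = 0.0048).

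All 16 genes of a list of eIF2 kinases, eIF2 and eIF2B subunits and their regulators were tested, and 9 were higher, none was lower and 7 did not pass, where 26.3% of all tested genes were higher and 26.3% lower. The median was 0.28. Impact, an inhibitor of the amino acid sensing kinase GCN2, rose from 2.74 ± 0.0707 to 8.47 ± 0.686 CPM (SD, n = 3, log2 fold change 1.62, adjusted p = 1.2e-04). It had 47, 50 and 47 counts in sg-con and 110, 158 and 131 in sg-kiaa1522, so it too passed the filter only through the group in which it was high, and its values are a description. Without it 8 of 15 genes of the list were higher. Gcn1l1, a co-activator of the same kinase, rose from 139 ± 11.7 to 262 ± 3.72 CPM (0.92, adjusted p = 1.0e-04). Without sg-con replicate 1, 1 gene of this list was lower.

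In 2 lists of amino acid metabolism the share of genes that were higher was closer to the 26.3% of all tested genes (with 26.3% lower), and the counts are given as a description. Of 9 tested serine and one-carbon genes 3 were higher, 1 was lower and 5 did not pass, with a median of 0.06. Mthfd2, the mitochondrial folate enzyme, rose by 0.74 on the log2 scale (adjusted p = 6.1e-04) and Psat1, of serine synthesis, by 0.41 (adjusted p = 0.0018). The third was Mthfd1 (0.21, adjusted p = 0.034), and the 1 that fell was Shmt1, a cytosolic enzyme that interconverts serine and glycine (-0.60, adjusted p = 0.0032), both named after their values were seen. Without sg-con replicate 1, 2 genes of this list were lower. As many as 6 of its genes (54.5%) are also in the list of stress response targets, as 20% of that list. Of 15 tested genes of glutamine, glutamate, proline and aspartate metabolism 4 were higher, which is near the 26.3% of all tested genes, 6 were lower and 5 did not pass, with a median of -0.05. Gls2, a glutaminase, fell from 15.8 ± 1.72 to 7.03 ± 0.442 CPM (SD, n = 3, log2 fold change -1.17, adjusted p = 2.8e-04), opposite to Gpt2, which is also in this list. Of its genes 3 (18.8%), Gpt2, Aldh18a1 and Pycr1, are shared with the list of stress response targets, as 10% of that list. The other genes that passed were named after their values were seen. Got1, an aspartate aminotransferase, Aldh18a1, of proline synthesis, and Oat, ornithine aminotransferase, rose by 0.71, 0.80 and 0.31 on the log2 scale (adjusted p = 1.0e-04, 2.9e-04 and 0.015). Log2 fold changes were -0.22 for Glul (glutamine synthetase), -0.52 for Glud1 (glutamate dehydrogenase), -0.39 for Prodh and -0.54 for Aldh4a1 (both of proline breakdown), and -0.71 for Asl (argininosuccinate lyase), with adjusted p-values of at most 0.035. Differences between lists were not tested.

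**Figure D5:**
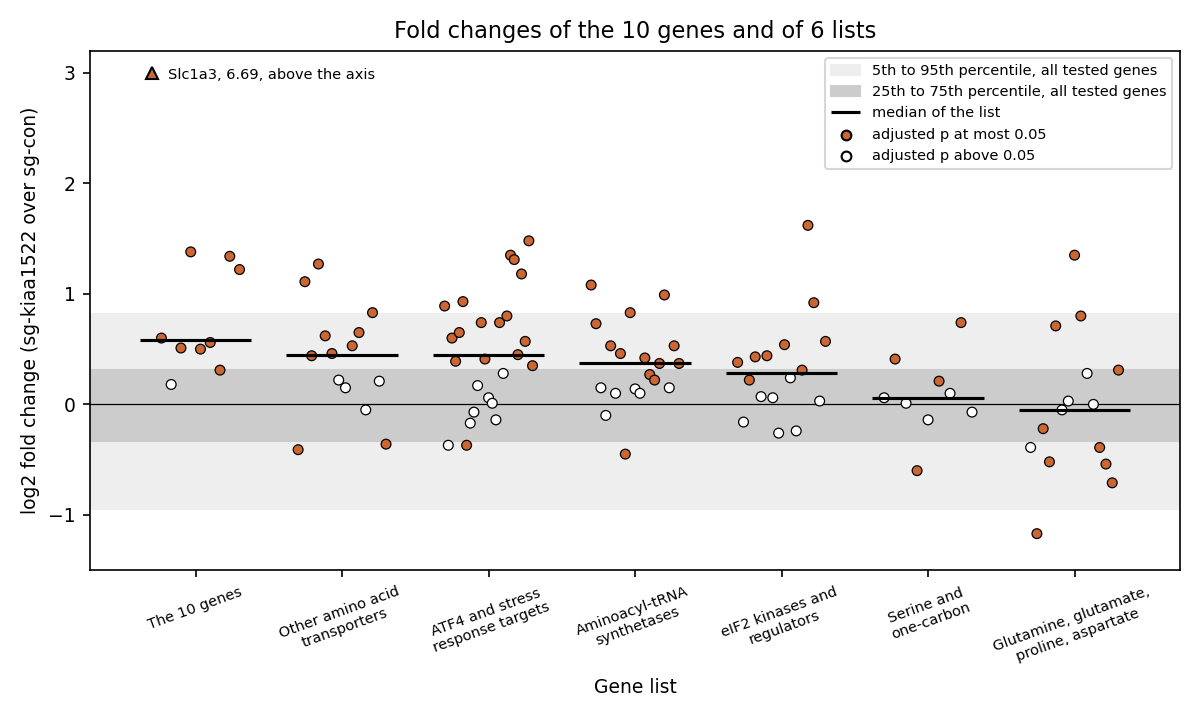
Log2 fold changes of the tested genes in the 10 genes and in 6 lists, with filled symbols for an adjusted p of at most 0.05, a line for each median and grey bands for the middle 50% and 90% of all tested genes. Medians run from 0.58 for the 10 genes to -0.05 for glutamine, glutamate, proline and aspartate metabolism, and Slc1a3 lies above the axis at 6.69.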

How the data were processed

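The authors used Seqtk for trimming and to remove rRNA reads, then mapped the rest to GRCm38 with HISAT2 2.0.4 and counted uniquely mapped fragments per gene with StringTie 1.3.0. The deposited values are these raw counts, 1 whole number for each Ensembl gene and library. The annotation release and the strand setting are not given in the sources used here. Groups and replicate numbers came from the titles.

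Genes whose summed count exceeded 500 were tested with edgeR 4.0.16 (R 4.3.3, TMM factors 0.989 to 1.01, quasi-likelihood test without covariates, Benjamini-Hochberg adjustment), after the study's methods, which name edgeR, this filter and the thresholds (a figure legend of the study gives a stricter fold threshold, not used here). Intervals of fold changes use the approximate standard error, derived from the F statistic, and the test's degrees of freedom at 95%. CPM used TMM-scaled library sizes. TPM used merged exon lengths from GENCODE M21 on GRCm38, over 34267 matched genes. At 12220001 to 18609376 counts per library, a floor of 3 counts is 0.162 to 0.247 CPM. Within a group, libraries differed by a chi-square per degree of freedom of at least 12.3, so none is the same library sequenced again. This does not tell whether they came from separate cultures.

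Promoters and their build are from RefSeq. The 10 genes and all lists were chosen with earlier results of these data known. Of the 20 synthetase names, Mars1 was not matched. Named genes are the 10, the targeted gene, and in each list those past the threshold, up to 5 in each direction, or where fewer than 2 pass, the 2 with the smallest adjusted p. Alternatives were DESeq2 1.42.0, scaling by RLE or by library size, filters of 1 count or filterByExpr, the replicate number as a block, each library left out, no minimum fold change, and mean transcript length for TPM.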

Additional observations from a re-analysis of the deposited data

How the results depend on the processing

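Every direction of the 10 genes held under the 12 other fits, and Slc1a5 did not pass in any of them (0.06 to 0.28, adjusted p 0.1 to 0.57). Slc7a5 ranged from 0.34 to 0.65 and Atf4 from 0.20 to 0.37 with each library left out, and both lost their call without single sg-kiaa1522 libraries. The replicate numbers did not pair the libraries: deviations of same-numbered libraries correlated at -0.21, -0.051 and -0.17, and no sg-con library correlated best with its own number. With the replicate number as a block, Atf4 was 0.32 (adjusted p = 0.059 in edgeR), the only one of the 10 to lose its call, and 285 genes were higher and 434 lower past a log2 fold change of 1, against 275 and 436 without it. Testing every gene with at least 1 count gave 767 higher and 941 lower, and filterByExpr 607 and 812, since more genes of low counts enter. With library size alone 1 gene of the eIF2 list was lower, and with filterByExpr 5 serine and one-carbon genes were higher. With each library left out, the lower genes numbered 1 to 2 in the stress response list, 0 to 1 in the eIF2 list and 1 to 2 in the serine list. The difference in the log2 ratio of Slc7a5 to Slc3a2 ranged from -0.04 to 0.06. The causes of these shifts were not tested. Mean transcript length cannot change the difference in a chain ratio, from which each gene's length cancels, and moved TPM of every gene but Trib3 beyond 1 SD, such as Slc7a11 in sg-con from 5.49 to 11.1.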

Other observations

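The 6 genes of the stress response and one-carbon lists under the filter of 500 counts were not tested in the main fit, and all are given here. Gdf15, a secreted stress cytokine, had 14, 31 and 25 counts in the sg-con libraries and 66, 144 and 135 in those labelled sg-kiaa1522. Aldh1l2, a mitochondrial folate enzyme, had 2, 0 and 0 counts and 10, 15 and 14. Fgf21, a hormone of fasting, had 3 counts in each sg-con library and 8, 7 and 13 in the others. Aldh1l1, a cytosolic folate enzyme, had 6, 9 and 7 counts and 21, 17 and 19. Cbs, of cysteine synthesis, had 7, 5 and 1 counts and 2, 6 and 4, which overlapped. Vldlr, a lipoprotein receptor, had 0, 1 and 0 counts and 0 in every library labelled sg-kiaa1522.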
